A study of Mus musculus and Rattus norvegicus with 4 samples.

Results

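The regions described here are the 605 MEF2A peaks of middling strength in C2C12 cells, out of the 2797 peaks that the authors listed for this library (21.6%). They were chosen by the authors' deposited score, as all peaks with a score of at least 100 and under 200, and are called medium-score peaks. The score is the peak caller's own value for each peak, whose scale no source used here states, and it runs from 50.1 to 3100 over the list. Because the score chose the members, their scores are given as a description. C2C12 is a line of mouse skeletal myoblasts, kept in these experiments for 48 h in differentiation medium with 2% horse serum. Chromatin bound by MEF2A was mapped by ChIP-exo, in which an exonuclease trims the precipitated DNA towards the bound protein. The series held 4 libraries with 1 library per group, namely precipitates with anti-MEF2A and with normal rabbit IgG from C2C12 cells, and the same pair from primary rat cardiomyocytes. The IgG and rat libraries were not analysed here, so neither cell type nor background was compared.

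MEF2A is one of the myocyte enhancer factor 2 proteins, transcription factors that bind an A/T-rich motif and act with the MyoD family in muscle differentiation. Class IIa histone deacetylases hold MEF2 proteins in a repressed state, and calcium signalling relieves that repression. Their known targets include genes of the sarcomere, of muscle energy use and of the early response to stimulation.

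At the upper limit, peaks just outside lay beside Ctps (200.1) and in Nav1 (200.3), and the strongest members in Col4a2 (199.5), near Tmem230 (199.5) and near Purb (199.5). At the lower limit, the last members were in Mef2c (100.2), beside Il13ra2 (100.2) and in Mrps27 (100.2), while peaks in Acoxl (99.9), near Map2k6 (99.9) and near Adgrl2 (99.7) fell just outside. The limits therefore cut through a continuous run of scores. The median member scored 135.4 (quartiles 116.5 and 161.7). With 1 library and no read counts, the depth behind a peak is unknown and its recurrence in a replicate cannot be examined.

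Promoters with a medium-score peak were few, and some of them carried a MEF2 motif under the peak. RefSeq promoter windows (GRCm38.p6), which reach from 250 bases before to 50 bases after a start site, were overlapped by 15 members (2.48%). Of these windows 10 belonged to protein-coding genes and 5 to long noncoding RNA genes. The peak lay wholly upstream of the start site at 8, across it at 5 and wholly downstream of it at 2. The MEF2 motif, searched on both strands, was present in 5 of the 15 windows (33.3%) and in 3.19% of all 32851 windows. It was present in 3 of 23 windows overlapped by peaks of 200 or more (13.0%) and in 5 of 62 overlapped by peaks under 100 (8.06%). These shares rest on few windows and were not tested, and a match does not show which protein binds it. In 4 of the 5 windows the motif lay inside the peak, those of Ywhah, Malat1, Lrrc14b and the noncoding RNA gene Gm14902. In the fifth, that of Il13ra2, it lay just outside the peak, with its last base at 147429224 and the peak from 147429226 on chromosome X.

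The parts of 5 of these peaks that fall upstream of the start site are shown 5′ to 3′ along the gene, 3 with a MEF2 motif and 2 from muscle and early response genes without one. Capitals mark a MEF2 motif in the first 3 and a TEAD motif in Nr4a1.
Ywhah: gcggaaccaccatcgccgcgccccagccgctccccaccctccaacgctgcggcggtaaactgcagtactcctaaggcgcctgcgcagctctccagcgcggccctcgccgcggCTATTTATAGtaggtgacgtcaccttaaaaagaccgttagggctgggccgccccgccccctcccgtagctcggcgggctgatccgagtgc
Malat1: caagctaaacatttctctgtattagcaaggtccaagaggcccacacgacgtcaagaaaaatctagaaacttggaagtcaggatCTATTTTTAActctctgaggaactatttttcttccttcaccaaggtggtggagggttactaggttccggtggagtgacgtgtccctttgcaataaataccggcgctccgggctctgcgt
Lrrc14b: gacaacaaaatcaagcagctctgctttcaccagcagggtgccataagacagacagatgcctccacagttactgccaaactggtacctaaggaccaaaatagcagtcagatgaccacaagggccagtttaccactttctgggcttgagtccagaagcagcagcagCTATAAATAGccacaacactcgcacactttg
Csrp3: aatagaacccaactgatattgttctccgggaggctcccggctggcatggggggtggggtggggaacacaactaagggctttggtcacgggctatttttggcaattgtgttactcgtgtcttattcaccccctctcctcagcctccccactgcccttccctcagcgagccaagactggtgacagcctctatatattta
Nr4a1: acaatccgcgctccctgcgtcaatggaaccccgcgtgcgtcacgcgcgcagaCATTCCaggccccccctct
These sequences come from RefSeq, at chr5:33018594-33018795 (plus strand), chr19:5802673-5802874, chr13:74364001-74364195 and chr7:48848055-48848251 (all minus strand) and chr15:101266596-101266666 (plus strand).

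Ywhah encodes 14-3-3 eta, a phosphoprotein-binding adaptor, and its peak scored 152.8. Its motif, CTATTTATAG, ended 101 bases before the start site and was centred 16 bases from the middle of the peak. Malat1, an abundant nuclear long noncoding RNA, had a peak of 160.5 that ran from 202 bases before to 109 bases after the start site, with CTATTTTTAA ending 110 bases before it. The window of Lrrc14b, a leucine-rich repeat gene, held CTATAAATAG ending 22 bases before the start site. Its peak of 132.9 also lay inside the longer span of Ccdc127. This match and that of Il13ra2 (TTATAAATAG, ending 23 bases before the start site) contain TATAAA, the letters of a TATA box. At these places a MEF2 motif cannot be told apart from a TATA box. Csrp3 encodes muscle LIM protein of the Z-disc, and its peak (145.8) covered bases 200 to 4 before the start site. No match to the MEF2 motif was found in the window of Csrp3, which says only that these letters are absent there.

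Nr4a1, an orphan nuclear receptor induced early after stimulation, had a peak of 131.0 at 442 to 180 bases before a start site that lies inside its span. Mustn1, a small gene of the musculoskeletal system, had a peak of 116.5 that began 1 base after the start site. The remaining protein-coding windows were those of Zfp46 (196.9), Adamtsl5 (193.7), Ppp2r3a, a regulatory subunit of protein phosphatase 2A (181.2), Ccser2 (173.6) and Il13ra2, a decoy receptor for interleukin-13 (100.2). The other noncoding windows were those of Gm42190 (187.0), Gm19705 (163.9) and Gm31204 (117.0).

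**Figure D1:**
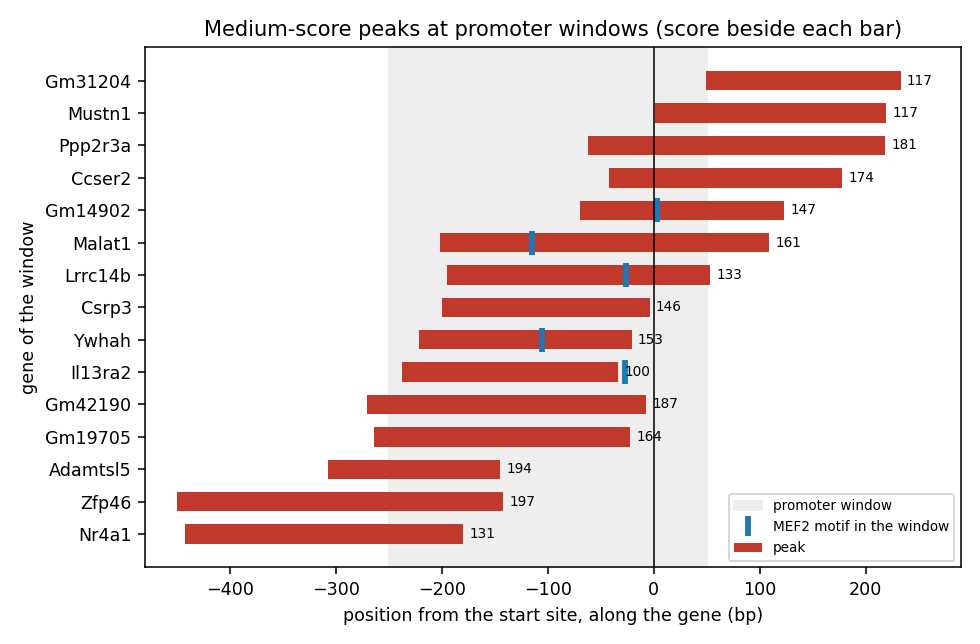
Each red bar is a medium-score peak placed by its distance from the start site in bp along the gene, with its deposited score beside it, for the 15 promoter windows overlapped (grey, 250 bp before to 50 bp after the start site). Blue marks show the MEF2 motif, which lies inside the peak at Ywhah, Malat1, Lrrc14b and Gm14902 and just outside it at Il13ra2.

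Other motifs were searched in the same windows. The TEAD motif (GGAATG) was in 5 of the 15 windows (33.3%) against 14.7% of all windows, among them those of Nr4a1, Mustn1 and Gm19705. It was in 17.4% of the windows at peaks of 200 or more and in 14.5% of those at peaks under 100. The AP-1 motif (TGANTCA) was in 2 windows (13.3%) against 7.81%, those of Il13ra2 and Gm14902. Windows at peaks of 200 or more held AP-1 in 13.0% and those at peaks under 100 in 14.5%. The E-box (CANNTG), the site of MyoD family proteins, was in 10 windows (66.7%) against 72.3%, and the CArG box of serum response factor was in 0 against 1.63%. In these windows 0 of the other motifs overlapped a MEF2 motif.

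Most medium-score peaks lay away from gene ends. Of the 605, 264 (43.6%, exact binomial 95% interval 39.6 to 47.7%) fell within a protein-coding gene span, 85 (14.0%) lay outside but within 10 kb, 151 (25%) lay between 10 and 100 kb away, and 105 (17.4%, interval 14.4 to 20.6%) lay farther than 100 kb from any span. Among members outside a span the median distance was 34.4 kb, against 44.8 kb for peaks of 200 or more and 44.6 kb for peaks under 100. The farthest members stood 1298.1 kb from Dsel and 1272.8 kb from Tenm2, and 14 were more than 500 kb from a protein-coding span.

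The location of medium-score peaks was not shown to differ from that of the other peaks of the list. The share inside a span was 43.6% against 48.0% of all other peaks, a difference of -4.36 percentage points (95% interval -8.78 to 0.14; two-sided Fisher exact test over peaks, adjusted p = 0.237). Against peaks of 200 or more alone it was 43.6% against 50.7%, a difference of -7.07 points (-13.2 to -0.88; Fisher exact p = 0.0264, adjusted p = 0.237). Within 1 kb of a span end lay 32 members (5.29%) and 7.21% of the other peaks, a difference of -1.92 points (-3.83 to 0.40; Fisher exact test, adjusted p = 0.258). Farther than 100 kb lay 17.4% and 17.6% (difference -0.25 points, -3.51 to 3.32; Fisher exact test, adjusted p = 0.904). Promoter windows were overlapped by 2.48% and 3.19% (difference -0.71 points, -1.99 to 0.99; Fisher exact test, adjusted p = 0.564). Each measure was also set against both other score classes, 12 tests in all with Benjamini-Hochberg adjustment. Of the 12, 1 had an unadjusted p under 0.05 and 0 passed after adjustment. Peaks of 1 library are not replicates, so these p-values compare peaks within the list and say nothing of other cultures.

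**Figure D2:**
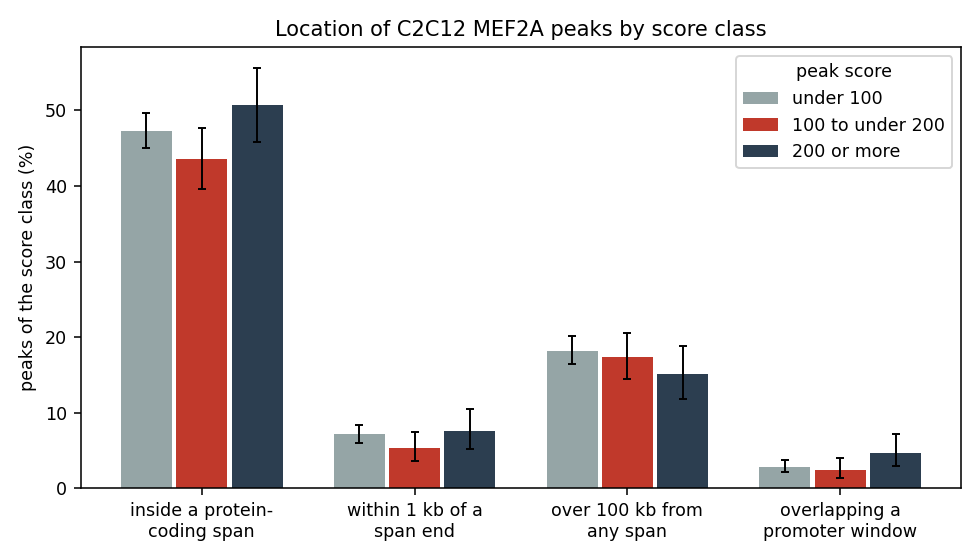
Bars give the percent of C2C12 MEF2A peaks of each score class in 4 kinds of location, with exact binomial 95% intervals that cover counting error only. The 605 medium-score peaks (red) stand at 43.6%, 5.29%, 17.4% and 2.48%, and their intervals overlap those of both other classes in each location.

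Medium-score peaks at gene ends included several muscle genes. The peak in Ttn, which encodes the giant elastic protein titin of the sarcomere, scored 186.5 and lay 562 bp from the upstream end of the span (chromosome 2, 76981773 to 76981995). Trim72, a membrane repair protein of striated muscle, had a peak of 142.6 at 228 bp inside its upstream end. Myh3, the embryonic myosin heavy chain, had a peak of 135.4 at 681 bp upstream and another of 142.6 at 2.53 kb downstream. Klhl41, a kelch protein of the myofibril, had a peak of 116.9 at 265 bp upstream. Ankrd1, a titin-associated stress protein, had a member of 100.2 at 455 bp upstream, which stood 83 bp from a peak of 1275.

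Genes with wider roles also had members at their ends. Those with the highest scores, beside Zfp46 and Adamtsl5, were Slc39a3, a zinc transporter (189.9), Gm128 (189.0), Nfkbiz, a nuclear regulator of NF-kappa-B (178.5), Arf2 (168.8) and Rnf41 (167.4). The spectrin genes Sptbn1 (112.5 at 643 bp upstream) and Sptan1 (107.4 at 497 bp upstream) each had a single member there. Klf11, a Krüppel-like repressor (141.5), and Git1, a focal adhesion scaffold (148.5 at 943 bp upstream), were others.

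The highest-scoring members lay inside genes or at varied distances from them. Of all 605 members, 43.6% lay inside a protein-coding span and 82.6% inside one or within 100 kb of it. Col4a2, a basement membrane collagen chain, held the first (199.5), 55.3 kb from the nearest end of its span. Purb, a single-stranded DNA-binding repressor of muscle actin and myosin genes, had the third at 1.31 kb upstream. Eya1, a coactivator of muscle progenitors, held the fourth (199.0). Zfp804b held the sixth (198.7), St3gal1 lay 45.6 kb from the seventh (198.3) and Slf2 lay 9.31 kb from the eighth (198.1). Ccn1, a matricellular growth regulator, had the ninth at 1.75 kb upstream (198.0), and Lpar3, a lysophosphatidic acid receptor, held the tenth (197.6). The fifth (199.0) was 189.8 kb from Sorcs3. At the other end of the range, beside the members just inside the limit, came those of Ankrd1 and Sdccag8 (100.3).

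**Figure D3:**
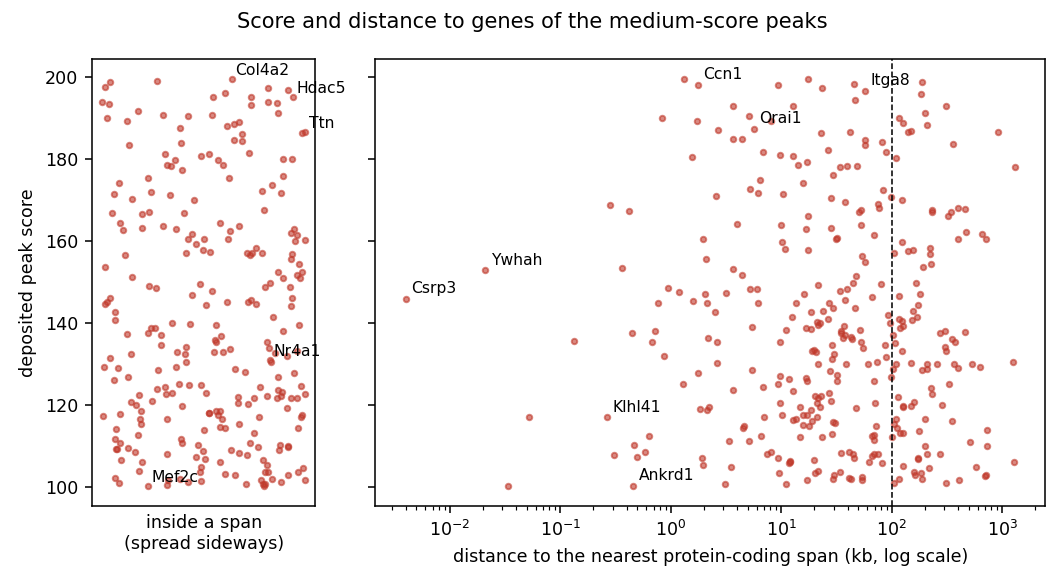
Each point is 1 of the 605 medium-score peaks, with its deposited score on the vertical axis. Members inside a protein-coding span are on the left, spread sideways at random, and the others are placed on the right by distance to the nearest span in kb on a log scale. The dashed line marks 100 kb, beyond which 105 members lie, and high and low scores are mixed on both sides of it.

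Taking for each peak the closest protein-coding span up to 100 kb away, 500 members (82.6%) were assigned to 472 genes, which was 2.16% of the 21887 protein-coding genes. Peaks of 200 or more gave 334 genes (1.53%) and peaks under 100 gave 1169 (5.34%). Nearness is no evidence of regulation. Long genes were assigned peaks more often. Genes with a medium-score peak had a median span of 68.7 kb against 17.2 kb for all protein-coding genes, and the share with such a peak rose from 0.845% of genes spanning under 10 kb to 9.39% of genes spanning 200 kb or more. The lists of genes below differ in gene length, and its part in their counts was not tested. Of 801 distinct genes in 20 lists, 70 were assigned a medium-score peak (8.74%), against the 2.16% of all protein-coding genes. The lists were chosen with earlier results of these data known, so their shares are only a description. No list was tested against other genes.

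Genes of the costamere and of cell adhesion, which tie the sarcomere to the membrane and matrix, had the highest share of the lists with the 100 kb limit. Of 50 genes, 11 (22.0%) had a medium-score peak, 8 (16.0%) a peak of 200 or more and 14 (28.0%) a peak under 100. The median span of the list was 76.6 kb. Several of the 11 belong to the dystrophin glycoprotein complex. Sspn, encoding sarcospan, had one of 178.3 at 39.2 kb. Sntb2 (119.7), Dtna, encoding alpha-dystrobrevin (106.5), and Dag1, encoding dystroglycan (102.2), each contained a member. Among integrins and their ligands, Itga8 had a member of 196.7 at 57.1 kb, Itga7, the laminin receptor chain of muscle, one of 119.0 at 1.84 kb, and Lama2, the laminin chain of the muscle basement membrane, one of 156.8 inside its span. Tln1, which links integrins to actin, held one of 138.0. Dysf and Ank3 also had one. With a 10 kb limit the list had 7 of 50 genes (14%), below the actin list at 8 of 50 (16%), the matrix list at 7 of 47 (14.9%) and the MEF2 list at 5 of 34 (14.7%). Inside spans only, it had 6 of 50 (12%), and the MEF2 list was highest at 14.7%. Of all 21887 protein-coding genes, 335 had a medium-score peak with the 10 kb limit and 254 inside spans only.

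Regulators of actin and of small GTPase signalling gave 10 of 50 genes (20%), against 6 (12.0%) with a peak of 200 or more and 17 (34.0%) with a peak under 100, and their median span was 75.4 kb. Rnd3, an atypical small GTPase that opposes contraction, had a member of 181.8 at 89.5 kb. Daam1, a formin, contained one of 174.3. The small GTPase genes Cdc42 (135.4 at 9.71 kb) and Rhob (127.0 at 9.82 kb) each had one upstream. Lpp, Svil, Abl2, Diaph1, Arhgef3 and Cfl2 were the remaining genes, and Svil, which encodes the actin-bundling protein supervillin, held 2 members (117.5 and 102.9). Outside the list, Mical2, an enzyme that oxidises actin, was assigned 3 members (160.4, 117.0 and 115.3) and 0 peaks of 200 or more. The only other gene with 3 members was Gm4868 (123.6, 119.5 and 106.5).

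Extracellular matrix and fibroblast genes gave 9 of 47 (19.1%), against 2 (4.26%) with a peak of 200 or more and 17 (36.2%) with a peak under 100. Their median span was 31.8 kb, nearer to that of all genes than the lists above. Beside Col4a2 and Ccn1, Adamts5, an aggrecan-cleaving protease, had members of 172.6 at 82.7 kb and of 110.3 inside its span, and Thy1 had one of 170.7 at 98.0 kb. The CCN family of matricellular proteins was present with 3 genes, Ccn1, Ccn4 (129.0 inside its span) and Ccn2 (107.3 inside its span). Has2, Col5a2 and Col12a1 were the others.

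MEF2 genes and their cofactors gave 5 of 34 (14.7%), against 1 (2.94%) with a peak of 200 or more and 7 (20.6%) with a peak under 100, with a median span of 77.1 kb. All 5 contained their members. Hdac5, a class IIa deacetylase that represses MEF2, held a member of 195.1, its only peak in the list. Cabin1, a calcineurin-binding repressor of MEF2, held one of 171.9. Mrtfa, a coactivator of serum response factor, held 2 (126.7 and 103.7). Tead1, a partner of YAP at MCAT elements, held one of 120.4. Mef2c held the member with the lowest score of all (100.2), 32 bp from a weaker peak.

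Sarcomere and contractile genes gave 6 of 65 (9.23%), against 7 (10.8%) with a peak of 200 or more and 16 (24.6%) with a peak under 100, and their median span was 23.0 kb. Beside Ttn, Csrp3, Myh3 and Ankrd1, Flnc, the muscle filamin, had a member of 136.4 at 2.16 kb upstream and Xirp1, an actin-binding protein of the intercalated disc and myotendinous junction, one of 105.2 at 1.97 kb. All 6 genes had a member within 10 kb, and 1 of them, Ttn, had it inside the span. Myogenic regulators and differentiation genes gave 4 of 47 (8.51%), against 4 (8.51%) with a peak of 200 or more and 10 (21.3%) with a peak under 100. Those with a medium-score peak were Eya1, Fbxo32, the atrophy ubiquitin ligase (124.4 at 6.86 kb), Klhl41, and Lmna, encoding nuclear lamin A and C (101.6).

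Among signalling lists, the MAPK and early response lists had smaller shares with a medium-score peak than the growth factor list. That order rests on few genes and did not hold in either other score class. MAPK pathway and dual-specificity phosphatase genes gave 3 of 52 (5.77%), against 10 (19.2%) with a peak under 100. They were Spred2, an inhibitor of the Ras to ERK pathway (131.8 at 89.0 kb), Dusp1, a phosphatase of p38 and JNK (119.5 at 22.4 kb), and Dusp10 of the same enzyme family (114.6 inside its span). Early response and AP-1 genes gave 2 of 36 (5.56%), Nr4a1 and Atf3 (119.3 at 47.3 kb). Growth factors, receptors and secreted regulators gave 7 of 68 (10.3%). Nrg1, encoding neuregulin, held a member of 191.2, and Egfr, the receptor of epidermal growth factor, held 2 (117.5 and 108.9). Slit2 had one of 143.0 at 23.8 kb and Bmp2 one of 135.4 at 53.0 kb, and Pdgfc, Fgf7 and Vegfa were the others.

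Calcium handling and calcineurin genes gave 4 of 48 (8.33%). Orai1, the pore of store-operated calcium entry, had a member of 187.4 at 5.62 kb upstream. Rcan2 (163.6) and Rcan1 (118.6), which encode inhibitors of calcineurin, and Camk2d (144.5), a calmodulin-dependent kinase, contained the others. Cardiac and developmental transcription factors gave 5 of 48 (10.4%), among them Foxp1 (189.4), Ebf1 (162.0 and 122.2), Tcf4 (135.4) and Meis1 (110.0). Ppargc1a, the coactivator of mitochondrial genes, was the only one of 50 energy metabolism genes (158.4), and Kcna5, a potassium channel, the only one of 36 ion channel genes (137.9 at 34.4 kb).

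Lists of other cell types and of the cell cycle had few or none. Npnt was the only one of 19 smooth muscle genes (116.3 at 12.7 kb), and Foxa2 the only one of 24 hepatocyte genes (101.9 at 29.2 kb). The Hippo, endothelial, neuronal, leukocyte, and cell cycle and apoptosis lists had 0 genes of 22, 24, 24, 24 and 33 with a medium-score peak. At 2.16% of all genes, lists of this size would hold about 1 gene or fewer, so a count of 0 or 1 is near the background. The energy metabolism and ion channel lists above also had 1 gene each.

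**Figure D4:**
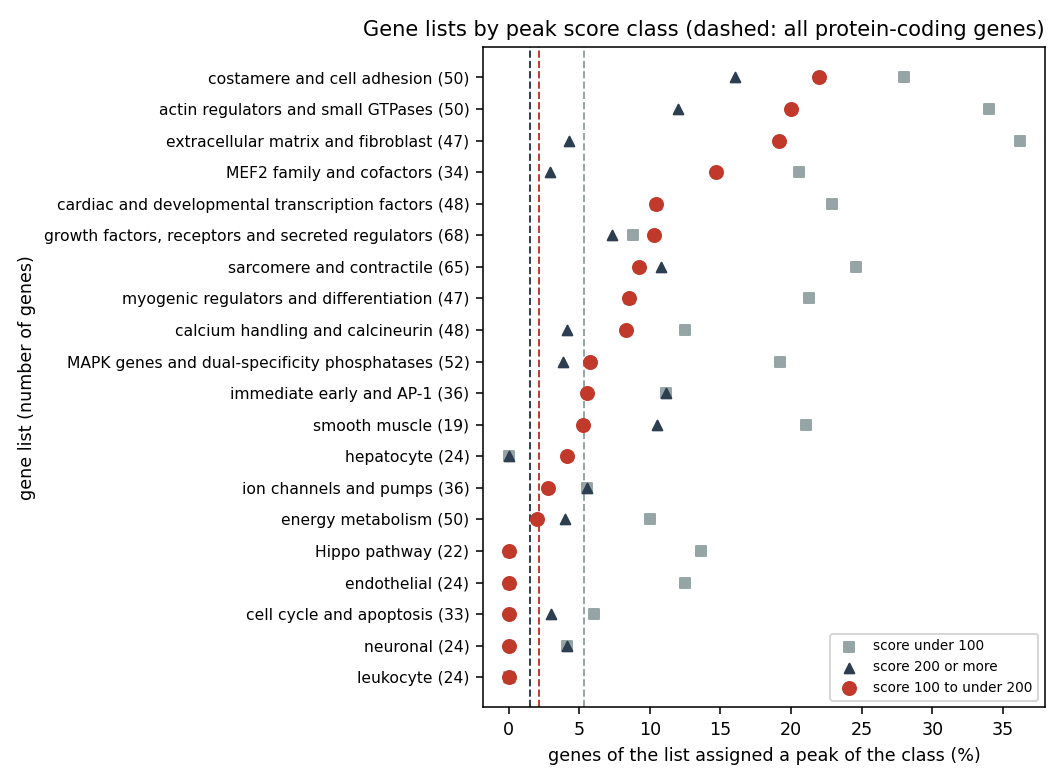
Points give the percent of each list's genes assigned a peak of each score class, and dashed lines the same over all protein-coding genes (2.16% for medium-score peaks, in red). With the 100 kb limit drawn here, costamere, actin and matrix lists stand highest for medium-score peaks, at 22.0%, 20% and 19.1%, and 5 lists stand at 0. Inside spans only, the MEF2 list is highest, at 14.7%, where 254 of all 21887 protein-coding genes had a medium-score peak.

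Many genes with a medium-score peak also had a peak of another class. Of the 472 genes, 151 (32.0%) also had a peak under 100, against 5.34% of all protein-coding genes, and 47 (9.96%) also had a peak of 200 or more, against 1.53%. The other 299 (63.3%) had no peak of another class. Seen from the other lists, those shared genes were 12.9% of the genes with a peak under 100 and 14.1% of the genes with a peak of 200 or more. All 3 classes met at 25 genes (5.30%), among them Ankrd1, Sspn, Lpp, Ppargc1a, Ccn4 and Cfl2, and Plec, encoding the cytoskeletal linker plectin. Of the 472 genes, 29 had 2 or more members. The shares over all protein-coding genes are not those of genes of like length. The 472 genes had a median span of 68.7 kb against 17.2 kb, and long genes were assigned peaks of each class more often. Of the 605 members, 70 had a peak under 100 as nearest peak less than 1 kb away, and 14 a peak of 200 or more. The part of gene length and of such close peaks in the shared genes was not tested.

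Some members stood next to another peak. Of the 605, 88 (14.5%) had another peak of the list less than 1 kb away, against 14.4% of peaks of 200 or more and 16.2% of peaks under 100. The neighbour was a peak under 100 for 70, a peak of 200 or more for 14 and another member for 4, and the median gap was 40.5 bp. Gaps this short cannot tell separate sites from a region that the caller split. Beside the member at Ankrd1, those next to a stronger peak included one in the span shared by Fgf7 and Fam227b (120.0, 6 bp from a peak of 239.4) and one 71.5 kb from Vegfa (114.8, 9 bp from a peak of 320.5). The 4 next to another member formed 2 pairs, 313.1 kb from Adamts9 and 157.9 kb from Tnfrsf11b.

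Medium-score peaks were intermediate in width, and the median was 211 bp, with quartiles of 171 and 258 bp, against 372 bp for peaks of 200 or more and 120 bp for peaks under 100. Width and score come from the same reads, so this is a description. Chromosome 2 held the most members (57). Their share of a chromosome's peaks ran from 14.6% on chromosome 4 and 15.6% on chromosome 1 to 28.8% on chromosome 13, leaving out chromosome Y with its 8 peaks, against 21.6% over the list.

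Noncoding genes accounted for a further part of the members outside protein-coding spans. Of the 605, 66 (10.9%) lay inside an annotated gene of another kind, mostly long noncoding RNA genes such as Malat1. The share was 10.1% in peaks of 200 or more and 9.90% in peaks under 100. Chosen after the values were seen, microRNA hairpins within 10 kb of a member included Mir214 (2.30 kb) and Mir199a-2 (7.85 kb), both near a member of 171.3 inside Dnm3. Mir21a lay 2.96 kb from a member of 145.2 inside Vmp1, a gene assigned 13 peaks in all.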

How the data were processed

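The peak list that the authors deposited for 1 C2C12 MEF2A library gives position, name and score for each peak, with no header. The submitters' processing notes name, without roles or settings, MACS 1.4.2, BWA 0.5.9, CASAVA 1.7.0, SAMtools and Picard, and for mouse the build mm10. No source used here states whether the IgG library served as control. The deposited score was used only to class, rank and describe peaks within this list, which holds only peaks past the caller's threshold. Starts were taken as 0-based and are printed as 1-based.

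Gene spans and promoter windows (79.9% of protein-coding symbols had one) came from RefSeq for GRCm38.p6, of which mm10 is a version. Strand was missing for many members, so upstream and downstream were not compared between classes. A peak within several spans counted for each of those genes. Location was compared by two-sided Fisher exact tests with a threshold of 0.05 (scipy 1.17.1, Python 3.11.15). The tests were also run on simulated data with a planted difference larger than those reported here. That run does not show whether differences of the size seen would be found. Intervals of differences are Newcombe's, and all intervals cover counting error only. All 802 listed symbols matched, 2 through a synonym.

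Members and gene lists were chosen with earlier results of these data known. Named genes are those of the 10 strongest and 5 weakest members, the leading genes of each list, genes with 3 or more members, the 10 strongest members at gene ends or promoter windows, and members at the score limits. A few genes named by it are not reported here. The other promoter windows, Trim72, Klhl41, Sptbn1, Sptan1, Klf11, Git1, Plec, genes named for neighbouring or distant peaks, and those in the closing section were chosen after their values were seen. Alternatives were other score limits, merged peaks, all annotated genes, leaving out peaks over 2 kb wide, other distances and start sites.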

Additional observations from a re-analysis of the deposited data

How the results depend on the processing

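Differences in location are medium-score peaks minus all other peaks, in percentage points, and in every alternative run 0 of them passed the threshold (Fisher exact test, Benjamini-Hochberg adjusted). The share inside a span stayed lower than in the other peaks in all 5 alternatives. The share within 1 kb of a span end was lower in 5 of 6. It went from -1.92 points to -3.76 with all annotated genes (9.42% against 13.2%, adjusted p = 0.0864 by Fisher exact test, the smallest of any alternative), and turned to 0.28 points higher with a 5 kb window. The share farther than 100 kb went from -0.25 points to -0.94 with a 50 kb limit and to -1.99 with a 200 kb limit, and turned to 0.32 points higher with scores of at least 80 and under 250, and to 0.64 points higher with all annotated genes. The number of genes fell from 472 to 274 with scores of at least 120 and under 180 and to 254 with peaks inside spans only, and rose to 741 with the wider score limits. Listed genes with a medium-score peak fell from 70 to 31 with the narrower limits and to 40 inside spans only. These settings admit fewer or more peaks by construction. No paired analysis was possible because there is only 1 library of each kind. Depth is unknown, and the precision of each peak's position and score cannot be given.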

Other observations

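Further genes of kinase anchoring, the cytoskeleton and transcription, chosen after their values were seen, had medium-score peaks. Pakap, a kinase anchoring gene, held a member of 128.0 among 6 peaks with a top score of 2067. Actr3, a subunit of the Arp2/3 complex that branches actin, was assigned 2 members (117.3 inside its span and 116.1 at 18.8 kb). Among nuclear regulators, Stat3, a cytokine-activated transcription factor, held a member of 190.6, Arid5b one of 196.2, and Nr3c2, the mineralocorticoid receptor, one of 193.6.

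A small group of members was very narrow, and many of these shared a score. Of the 605, 31 (5.12%) were under 100 bp wide. A score identical to that of another narrow member was held by 15 of the 31 (48.4%), and 4 of them had the same score of 130.0. Among the 574 wider members 133 (23.2%) shared a score with another wider one, and the larger group has more chances to do so. Of the narrow members 9 (29.0%) lay inside a protein-coding span and 8 (25.8%) lay over 100 kb from any, against 44.4% and 16.9% of the wider ones. These differences were not tested.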
